A study of Mus musculus with 4 samples.

Results

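The regions described here are AGO2 eCLIP clusters in 3' UTRs of neonatal mouse brain that lack a seed site of any of 5 miRNA families: miR-124, let-7, miR-9, miR-16 and miR-30a. A cluster was kept if its midpoint lay in an annotated 3' UTR on its own strand, outside coding sequence, and if the cluster with 25 bases added on each side held no match to bases 2 to 8 of these miRNAs (a 7mer-m8 site). Of 8586 3' UTR clusters in the wild-type library, 7304 (85.1%) met the rule, in 3250 genes. In the knockout-labelled library it was met by 9069 of 10655 (85.1%), in 4037 genes. The series-wide table, whose regions are nearly all those of the wild-type library, held 7304. In all, 16371 distinct regions of 132924 met the rule, in 4992 genes. They are called seedless clusters below, a name that refers to these 5 families alone.

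The study profiled whole brain at postnatal day 0 from C57BL/6 mice, wild type or labelled FMR1 ko, with 1 AGO2 immunoprecipitate (IP) and 1 size-matched input per genotype. The anti-AGO2 antibody was EAG009 of eClipse BioInnovations, to which the frozen brains were sent. The knockout allele and the number of brains per library are not given in the labels. Input reads were seen only in so far as the IP scores use them, and the knockout label could not be checked on these data, so that library is called knockout-labelled throughout. With 1 library per genotype there is no replicate and no test between genotypes: every interval below is an exact binomial (Clopper-Pearson) 95% interval that covers counting error only, and a difference between the tables compares libraries. Clusters of 1 gene share its transcript and are not independent.

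AGO2 carries a miRNA and binds mRNA mostly where bases 2 to 8 of the miRNA, the seed, pair with the 3' UTR. A pairing of bases 2 to 7 followed by an A in the mRNA (a 7mer-A1 site) or of bases 2 to 7 alone (a 6mer) is weaker. miR-124, let-7 and miR-9 are abundant in developing neurons, and miR-17, miR-19 and miR-92 are processed from shared transcripts known for their part in cell growth. eCLIP reads mark where AGO2 was crosslinked, and a size-matched input shows the background from RNA abundance.

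The 4 excluded families with an entry in the RefSeq miRNA table (GRCm38.p6) are printed first, because they define what was removed, with the seed in capitals.
let-7a-5p: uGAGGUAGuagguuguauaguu
miR-9-5p: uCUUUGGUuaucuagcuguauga
miR-16-5p: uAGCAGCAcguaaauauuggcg
miR-30a-5p: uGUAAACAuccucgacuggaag
On the transcript the excluded letters were CTACCTC for let-7, ACCAAAG for miR-9, TGCTGCT for miR-16 and TGTTTAC for miR-30a. For miR-124-3p they were GTGCCTT, whose complement is the seed held by the 3 Mir124a hairpin genes.

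The families with the 5 largest excesses over the surrounding 3' UTR in either library are printed next, again with the seed in capitals, and after them miR-153, whose site is also shown in an example.
miR-125b-5p: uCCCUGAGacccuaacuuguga
miR-17-5p: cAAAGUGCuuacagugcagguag
miR-19b-3p: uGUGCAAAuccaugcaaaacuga
miR-130a-3p: cAGUGCAAuguuaaaagggcau
miR-181a-5p: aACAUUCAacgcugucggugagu
miR-92a-3p: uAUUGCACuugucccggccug
miR-153-3p: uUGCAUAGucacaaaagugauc
The sites of miR-130a (TTGCACT) and miR-19b (TTTGCAC) share letters, as do those of miR-17 (GCACTTT) and miR-130a, so that a single stretch of UTR can count for more than 1 family.

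A few stretches of mm10 show what stood in place of the 5 sites in clusters that the results below turn on. In the first set the capitals are 7mer-A1 sites of the excluded families.
Arhgdia, miR-124 7mer-A1, chr11:120578765-120578791, minus strand: ctaaccatgaTGCCTTAacatgtggaa
Map1b, miR-124 7mer-A1, chr13:99424847-99424873, minus strand: ggagacatttTGCCTTAggaagtgact
Epha7, let-7 7mer-A1, chr4:28966485-28966511, plus strand: ttcagcaataTACCTCAtctgccttaa
Igf2, let-7 7mer-A1, chr7:142651441-142651467, minus strand: gctggaggttTACCTCAcccccacttc
Klf13, miR-9 7mer-A1, chr7:63889074-63889100, minus strand: taggctgtttCCAAAGAgagcacttaa

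In the second set the capitals are 7mer-m8 sites of other families.
Zfp385a, miR-125b, chr15:103314786-103314812, minus strand: caccccagatCTCAGGGaaccccgccc
Tbc1d9, miR-17, chr8:83272628-83272654, plus strand: tggcatgtctGCACTTTgaatccttat
Camk2n2, miR-17, chr16:20619907-20619933, minus strand: acgcactcatGCACTTTagaacctcgg
Smarca2, miR-19b, chr19:26778202-26778228, plus strand: ctttgctttcTTTGCACaatgtctttg
Shank1, miR-19b, chr7:44357838-44357864, plus strand: ggctgcagttTTTGCACaagcttgccc
Zbtb7a, miR-130a, chr10:81150563-81150589, plus strand: cccttgggaaTTGCACTaaacccttga
Map1b, miR-181a, chr13:99424830-99424856, minus strand: ggaagtgactTGAATGTacaaagacac
Nfix, miR-92a, chr8:84706855-84706881, minus strand: cgcggtcaaaGTGCAATgatttttcag
Prdm2, miR-153, chr4:143109059-143109085, minus strand: gcgtctccttCTATGCAattttttaaa

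In the third set the capitals are predicted G-quadruplexes, 4 runs of at least 3 G with loops of up to 7 bases.
Klf13, chr7:63889111-63889132, minus strand: GGGTTGGGGGGGAGGGGGAGGG
Sema7a, chr9:57962228-57962251, plus strand: GGGGTTGGGGGGGCGGGTAGAGGG

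The seedless clusters were short and thinly covered. Their median length was 36 bases in the wild-type and 46 bases in the knockout-labelled library. Read numbers recovered from the authors' scores were 3 or 4 in the IP for 4497 of the wild-type members (61.6%) and for 5341 of the knockout-labelled members (58.9%). Only 663 and 892 members had 10 or more IP reads. The wild-type input was 6.34 times as deep as its IP, the knockout-labelled input 1.92 times as deep as its IP, and of the 2 IPs the knockout-labelled one was 2.28 times deeper. Because the scores count an input without reads as 1 read, a cluster with 3 IP reads and at most 1 input read scored a log2 of 4.25 in the wild-type but 2.52 in the knockout-labelled table. Shares past a fixed limit therefore cannot be compared between the libraries, and the comparisons below are made within each.

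A smaller share of seedless than of site-bearing clusters stood above input. Enriched meant a deposited −log10 p of at least 3 and a deposited log2 of IP over input of at least 3, both the authors' own scores. In the wild-type library 2498 of 7304 seedless clusters were enriched (34.2%, 33.1 to 35.3), beside 24.1% of all clusters of that library and 690 of 1282 clusters with a site (53.8%, 51.0 to 56.6). In the knockout-labelled library 591 of 9069 were enriched (6.52%, 6.02 to 7.04), beside 3.08% of all clusters and 367 of 1586 with a site (23.1%, 21.1 to 25.3). The seedless share thus lay above the share over all clusters and below that of site-bearing 3' UTR clusters in both libraries, with intervals that did not overlap. Among the single families the site-bearing shares ran from 47.0% (miR-9) to 60.1% (miR-124) in wild type and from 15.1% (miR-16) to 34.2% (miR-124) in the knockout-labelled library.

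**Figure D1:**
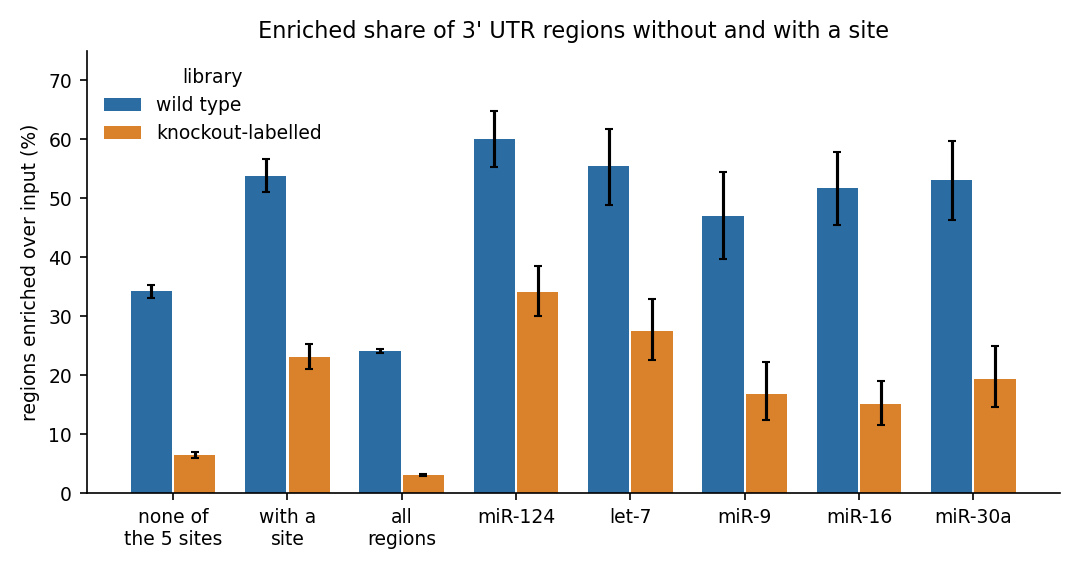
Percent of 3' UTR clusters enriched over input (y axis) for clusters with none of the 5 sites, with any of them, for all clusters of the library, and for each family; bars are the wild-type and knockout-labelled libraries and lines are exact 95% binomial intervals for counting error. Seedless clusters reached 34.2% and 6.52%, below the site-bearing clusters at 53.8% and 23.1%.

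Read depth moved with this difference. Site-bearing clusters had a median of 5 IP reads against 4 in seedless clusters in both libraries, and no cluster with 3 or 4 reads passed the −log10 p limit. Among clusters with at least 10 IP reads the order was the same: 86.4% of 663 seedless and 99.2% of 248 site-bearing clusters were enriched in wild type, and 56.3% of 892 and 87.7% of 373 in the knockout-labelled library. Where the input held at least 5 reads, 24.4% of 426 seedless and 14 of 28 site-bearing wild-type clusters were enriched. The corresponding shares in the knockout-labelled library were 4.89% of 614 and 18.6% of 59.

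The limit of the rule could be followed from both sides. Clusters whose only site lay up to 25 bases outside the called region were left out by the rule, and 140 of 389 were enriched in wild type and 37 of 446 (8.30%) in the knockout-labelled library. Clusters whose nearest site lay between 25 and 50 bases away were kept, and 36.8% of 288 and 12.2% (8.73 to 16.5) of 294 were enriched. With no site within 50 bases the shares were 34.1% of 7016 and 6.32% (5.82 to 6.85) of 8775, whereas a site inside the called region gave 61.6% of 893 and 28.9% of 1140. In wild type the clusters on either side of the limit were thus within counting error of those with no site nearby, while in the knockout-labelled library those with a site 25 to 50 bases away were enriched more often. The knockout-labelled cluster of Myadm, which encodes a membrane protein, shows the limit: it had 219 IP reads against 2 in the input and counted as seedless, while the wild-type cluster that overlaps it (453 against 7 reads) held a miR-124 site. In all, 119 wild-type members (50 of them enriched) and 100 knockout-labelled members (24 enriched) lay within 25 bases of another cluster that held a site. Leaving these out gave 34.1% and 6.32% enriched.

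The enriched seedless clusters often held weaker sites of the same 5 families. Motifs were sought on the transcript strand in the 100 genomic bases around each cluster's midpoint. Windows of 100 bases tiled over the longest 3' UTR of the same genes, outside clusters and without the 5 sites, served for comparison (32640 in wild type and 9491 for the knockout-labelled library). Any of the 5 sites in the outer part of a cluster's window was masked. The 13 wild-type and 9 knockout-labelled enriched members over small RNA genes were left out, which leaves 2485 and 582. Any 7mer-A1 site of the 5 families stood in 221 enriched wild-type windows (8.89%), in 6.26% of those not enriched and in 2.44% of tiled windows. For the knockout-labelled library it stood in 79 enriched windows (13.6%, 10.9 to 16.6), in 5.58% and in 2.53%. The enriched windows were thus above the tiled windows in each library by more than counting error, and the clusters that were not enriched lay between.

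Most of this excess came from miR-124, let-7 and miR-9. The miR-124 7mer-A1 site TGCCTTA was in 3.34% of enriched wild-type windows (83 clusters), 1.85% of those not enriched and 0.475% of tiled windows. Among knockout-labelled clusters it was in 6.53% (38), 2.01% and 0.527%. The let-7 7mer-A1 site TACCTCA reached 1.97% against 0.429% of tiled windows in wild type and 3.95% against 0.432% in the knockout-labelled library. For miR-9 (CCAAAGA) the shares were 2.70% against 0.683% and 2.41% against 0.716%. miR-16 (GCTGCTA) and miR-30a (GTTTACA) showed little: 0.402% against 0.368% and 0.845% against 0.512% in wild type, on 10 and 21 clusters. The bulged miR-124 site GTGGCCTT, in which an extra G interrupts the seed pairing, was in 1.25% of enriched against 0.239% of tiled windows in wild type (31 clusters) and in 2.41% against 0.158% in the knockout-labelled library (14 clusters).

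Single clusters show these sites together with strong AGO2 signal. The Arhgdia cluster over the miR-124 7mer-A1 site printed above had 55 IP reads against 1 input read in wild type (log2 8.45) and 70 against 1 in the knockout-labelled library (7.07). The Epha7 cluster, in the gene of an axon guidance receptor, holds the let-7 7mer-A1 site and, just downstream, a miR-124 7mer-A1 site. It had 21 reads against 1 in wild type and 32 against 1 in the knockout-labelled library. Both clusters were enriched in both libraries.

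A scan of all 7-letter words, made without a list, led to the same letters. It used the same windows as the shares above and is no separate evidence. TGCCTTA is also the 7mer-m8 site of miR-5624-3p, and GCCTTAA is the 7mer-A1 site of that miRNA. Among 3877 words present in at least 20 enriched wild-type windows, TGCCTTA had the highest ratio of enriched over tiled share, 7.03, followed by the overlapping GCCTTAA (6.12), then by CACGCAC (5.21) and the let-7 word TACCTCA. Among 97 such words in the knockout-labelled library GCCTTAA led (16.3), followed by TGCCTTA (12.4), TACCTCA (9.15), AGCCTTA (7.32) and TTGCACT (7.30), the miR-130a site. Words with runs of G, such as GGGGGGG in wild type or GGGGGGC in the other library, were also among the 10 leading words of each. The words of the 7mer-m8 sites themselves are absent by the rule, and a word that holds 6 of their letters is counted without them.

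Sites of other miRNA families were the second feature. Of 50 further families 46 had a mature sequence in the table and were searched. At least 1 of their 7mer-m8 sites was in 48.2% (46.3 to 50.2) of enriched, 42.1% of not enriched and 33.9% of tiled wild-type windows, 1.42 times the tiled share. The knockout-labelled shares were 51.0% (46.9 to 55.2), 40.3% and 33.2%, 1.54 times. When 6mer sites of the 5 families were counted too, 58.5% of enriched wild-type and 66.2% of enriched knockout-labelled windows held something, against 41.1% and 40.4% of tiled windows. The other enriched clusters had neither.

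By excess over the tiled share, in percentage points, miR-125b, miR-17, miR-19b and miR-130a were ahead of the rest in both libraries. In wild type miR-125b (CTCAGGG) was in 3.78% of enriched against 0.962% of tiled windows, miR-17 (GCACTTT) in 3.58% against 0.922%, miR-19b (TTTGCAC) in 2.82% against 0.821%, miR-130a (TTGCACT) in 2.66% against 0.751% and miR-181a (TGAATGT) in 3.14% against 1.30%. In the knockout-labelled library miR-17 reached 6.01% against 0.927%, miR-130a 5.15% against 0.706%, miR-19b 4.30% against 0.853%, miR-125b 3.78% against 0.885% and miR-92a (GTGCAAT) 2.41% against 0.432%. The fifth place thus went to miR-181a in wild type and to miR-92a in the knockout-labelled library, and wild-type miR-92a was at 1.45% against 0.499%. Their sites partly coincide: of 66 wild-type windows with a miR-130a site 36 also held a miR-19b site, and of 30 such knockout-labelled windows 16 did. miR-153 (CTATGCA) was in 1.69% against 0.548% and in 2.41% against 0.474%. By ratio the rare site of miR-99a (TACGGGT) was higher than most, with 0.282% against 0.0521% and 0.687% against 0.0527%, on 7 and 4 clusters.

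Not all families did so. miR-10a (ACAGGGT) was in 0.483% (0.250 to 0.842) of enriched against 0.959% of tiled wild-type windows, and miR-410 (GTTATAT) in 0.241% (0.0887 to 0.525) against 0.610%, both below the tiled share by more than counting error. In windows of 40 to 50% GC, a choice made after seeing the data, miR-10a stayed below (0.246% against 1.14%), but miR-410 turned to 0.493% against 0.295%, on 4 clusters. Neither was below by more than counting error in the knockout-labelled library. miR-218 (AAGCACA) with 0.926% against 1.09% and miR-495 (GTTTGTT) with 1.81% against 2.02% were within it. miR-29a (TGGTGCT), miR-34a (CACTGCC) and miR-132 (GACTGTT) were within counting error of the tiled windows in both libraries.

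**Figure D2:**
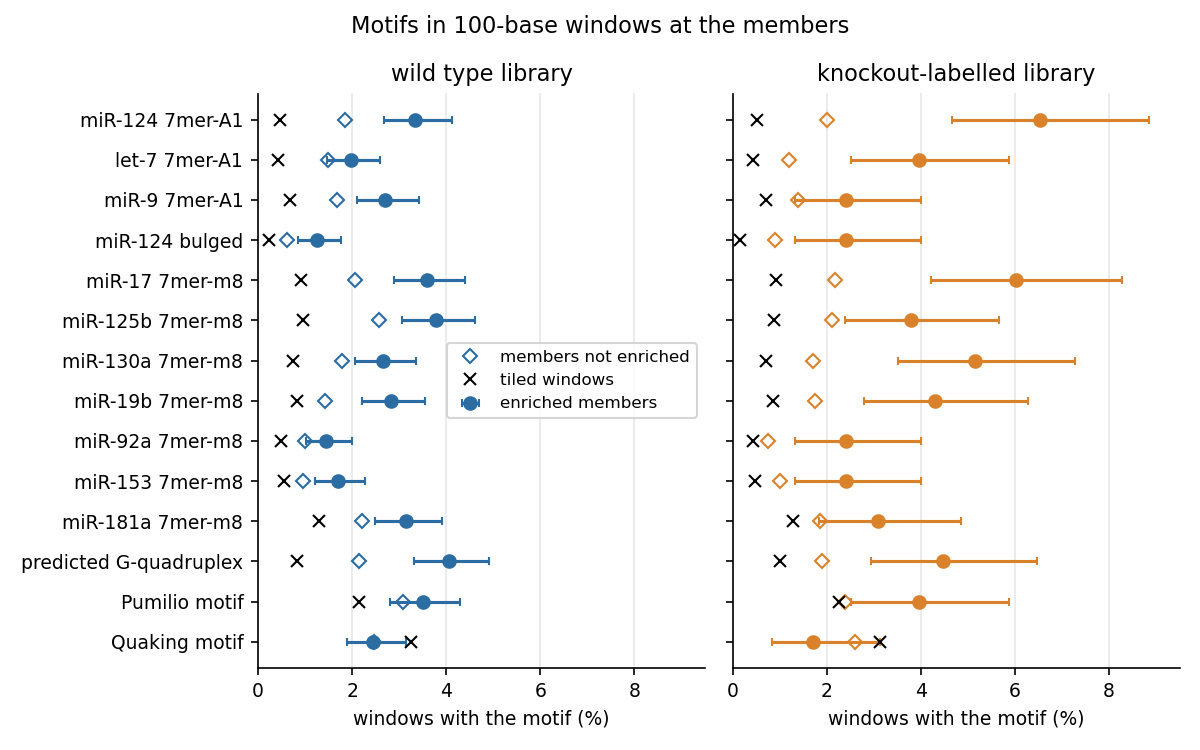
Percent of 100-base windows that hold a motif (x axis) for enriched seedless clusters (filled circles with exact 95% intervals), seedless clusters that are not enriched (open diamonds) and tiled windows of the same 3' UTRs (crosses), by library. The miR-124 7mer-A1 site reached 3.34% and 6.53% of enriched windows against 0.475% and 0.527% of tiled windows. The Quaking motif lay below the tiled share, by more than counting error in wild type only.

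Most of the strongest examples of these families, and all those printed above for the families named here, were enriched in both libraries. Frmd4a, among the strongest wild-type members with a miR-17 site, was not enriched in the knockout-labelled library (35 reads against 12, log2 2.48). Zfp385a, a zinc finger gene, had 37 reads against 1 over its miR-125b site in wild type and 48 against 1 in the knockout-labelled library. Tbc1d9, of a family of Rab GTPase regulators, had 52 against 2 and 53 against 1 over a miR-17 site, and Camk2n2, which encodes an inhibitor of CaMKII, had 16 against 3 and 38 against 1. Smarca2, the gene of a BAF chromatin remodelling ATPase, had 38 against 1 and 26 against 1 over a miR-19b site. Shank1, a postsynaptic scaffold gene, had 30 against 2 and 39 against 4. These are among the members with the highest −log10 p for their family in either library. Other examples printed above were Zbtb7a (22 reads against 1 and 21 against 1), Nfix (31 against 5 and 79 against 12) and Prdm2 (34 against 1 and 30 against 1).

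The sites lay at the middle of the clusters. In 20-base bins the 7mer-A1 sites of the 5 families peaked at 3.34 sites per 100 enriched wild-type clusters in the bin just upstream of the midpoint and 2.98 just downstream, and fell to 1.17 and 0.523 at 50 bases on either side. For the knockout-labelled library the values were 5.50 and 3.95, then 1.37 and 0.859. For the other families the same 5 were counted in both libraries, miR-17, miR-130a, miR-19b, miR-92a and miR-125b, chosen after their values were seen. They peaked at 4.39 and 5.03 sites per 100 clusters in wild type and at 8.93 and 5.50 in the knockout-labelled library. Clusters that were not enriched had a lower rise, to 1.98 and 1.92 sites for the 7mer-A1 group and to 2.79 and 2.64 for the other families.

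**Figure D3:**
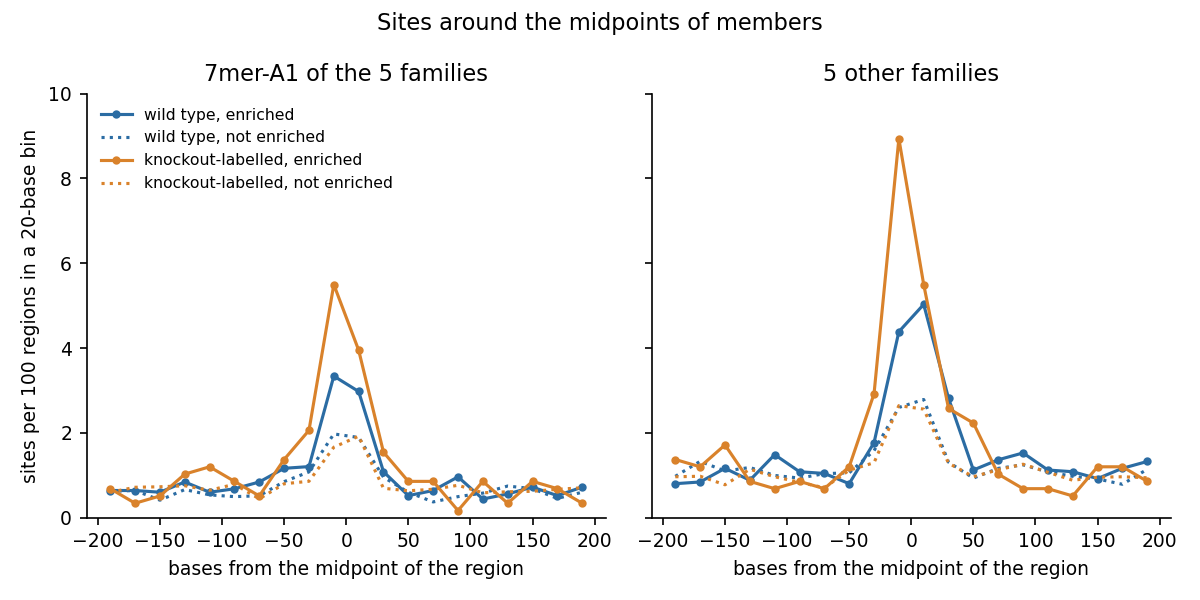
Sites per 100 seedless clusters in 20-base bins (y axis) against the distance in bases from the cluster midpoint (x axis), for 7mer-A1 sites of the 5 families (left) and 7mer-m8 sites of miR-17, miR-130a, miR-19b, miR-92a and miR-125b (right); solid lines are enriched and dotted lines not enriched clusters. All curves are highest within 20 bases of the midpoint, up to 5.50 on the left and 8.93 on the right.

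The third feature was G-rich sequence. A predicted G-quadruplex was in 4.06% (3.32 to 4.92) of enriched, 2.14% of not enriched and 0.824% of tiled wild-type windows (101 enriched clusters). The knockout-labelled shares were 4.47% (2.94 to 6.48), 1.90% and 1.001% (26 clusters). Enriched windows were also richer in G and C, with 47.5% in wild type and 50.5% for the knockout-labelled library against 43.8% and 44.1% of tiled windows. Within windows of 40 to 50% GC the G-quadruplex share was still 3.08% of enriched against 0.421% of tiled windows in wild type. In the knockout-labelled library it was 1.81% against 0.588%, on 3 of 166 clusters, and the interval of 0.374 to 5.19% includes the tiled share. Klf13, which encodes a Krüppel-like transcription factor, holds such a stretch beside the miR-9 7mer-A1 site, and had 103 reads against 3 in wild type and 63 against 1 in the knockout-labelled library. Sema7a, the gene of a membrane-anchored semaphorin, had 67 against 1 and 81 against 4 reads.

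Motifs of other RNA-binding proteins and of 3' end formation were nearer the tiled share, and for some A- and U-rich ones the direction turned with base composition. The poly(A) signal AATAAA was in 5.55% of enriched and 5.99% of tiled wild-type windows, the AU-rich core ATTTA in 12.6% and 15.1%, the U run TTTTTTT in 4.99% and 5.58%, and the m6A core GGACT in 7.93% and 8.84%. The Quaking motif (ACTAAC or ACTAAT) was in 2.45% and 3.26%, and the PTB motif (CTTTCT or TCTTTC) in 9.05% and 9.43%. TGCATG, the RBFOX motif, was in 4.02% and 3.34%. Higher than the tiled share by more than counting error were the Pumilio motif TGTANATA, with 3.50% and 2.16%, and the GU repeat TGTGTGT, with 5.51% and 2.97%. Wild-type clusters that were not enriched had nearly the same shares of these last motifs, 3.08% and 5.18%. The Pumilio motif was also higher in the knockout-labelled library, with 3.95% of enriched, 2.40% of not enriched and 2.25% of tiled windows. The knockout-labelled windows had lower shares than tiled ones for AATAAA (3.78% and 5.72%), ATTTA (11.0% and 15.1%) and GGACT (5.67% and 8.85%), and a higher one for TGTGTGT (6.70% and 3.03%).

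In windows of 40 to 50% GC the poly(A) signal AATAAA, the AU-rich core and the U run were no longer lower. There AATAAA was in 5.79% (4.28 to 7.62) of enriched against 4.09% of tiled wild-type windows, TTTTTTT in 4.19% (2.92 to 5.80) against 2.74% and ATTTA in 11.8% (9.68 to 14.2) against 10.7%. The other poly(A) signal searched, ATTAAA, was lower in these wild-type windows, at 1.97% (1.13 to 3.18) against 2.88%, but within counting error. The longer AU-rich word TATTTAT, at 2.62% against 2.32% in all wild-type windows, was at 2.59% (1.61 to 3.93) against 1.19%. On the 166 knockout-labelled clusters of this class the shares were 4.22% against 4.08% for AATAAA, 13.9% against 11.5% for ATTTA and 7.23% (3.79 to 12.3) against 2.53% for TTTTTTT. The Pumilio motif and TGTGTGT remained above the tiled share in both libraries. GGACT was below it in both, by more than counting error in wild type only, where it had been within that error in all windows. The Quaking motif was within counting error, at 0.810 (0.497 to 1.24) times the tiled share in wild type and 0.603 (0.125 to 1.73) times in the knockout-labelled library.

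Longer pairing with any miRNA of the table was more frequent than in tiled windows, by a smaller factor. An unbroken run of at least 12 Watson-Crick pairs stood in 583 of 2485 enriched wild-type windows (23.5%, 21.8 to 25.2) against 17.1% of tiled windows, and in 170 of 582 knockout-labelled windows (29.2%, 25.5 to 33.1) against 17.5%. At 16 pairs or more the shares were 1.09% against 0.426% and 0.859% against 0.421%. Because 583 clusters are too many to name, only the longest run is given. It was 22 pairs, to bases 2 to 23 of miR-708-5p, in the 3' UTR of Nnat, an imprinted gene that encodes a small membrane proteolipid, at chr2:157562412-157562454 (plus strand). That cluster had 26 reads against 9 in wild type (log2 4.19), and the knockout-labelled cluster over it had 55 against 15 (2.81) and was not enriched. The next was a run of 21 pairs to miR-574-5p in Lhx1, a homeobox gene, on 12 reads against 8, and the 5 runs of 19 pairs were all to miR-1187. Most runs of 16 pairs or more were to miR-1187, miR-574-5p or members of the miR-466 and miR-467 groups. How far the excess of long runs comes from repeats such as TGTGTGT was not tested.

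Position in the UTR was much the same for all classes. The median enriched seedless cluster lay at 0.405 of the 3' UTR (0.387 to 0.424; 0 is the stop codon and 1 the annotated end) in wild type and at 0.378 (0.331 to 0.411) in the knockout-labelled library. Seedless clusters that were not enriched lay at 0.404 and 0.410, and enriched clusters with a site at 0.396 and 0.411. The first 10% of the UTR held 15.1% of enriched seedless clusters in wild type and 15.6% for the knockout-labelled library, and the last 10% held 7.29% and 6.77%. Enriched seedless clusters thus leaned towards the stop codon in both libraries, as did those that were not enriched (15.2% to 7.64% and 16.1% to 7.18%). Their intervals overlapped those of enriched site-bearing clusters in each of the 10 steps.

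**Figure D4:**
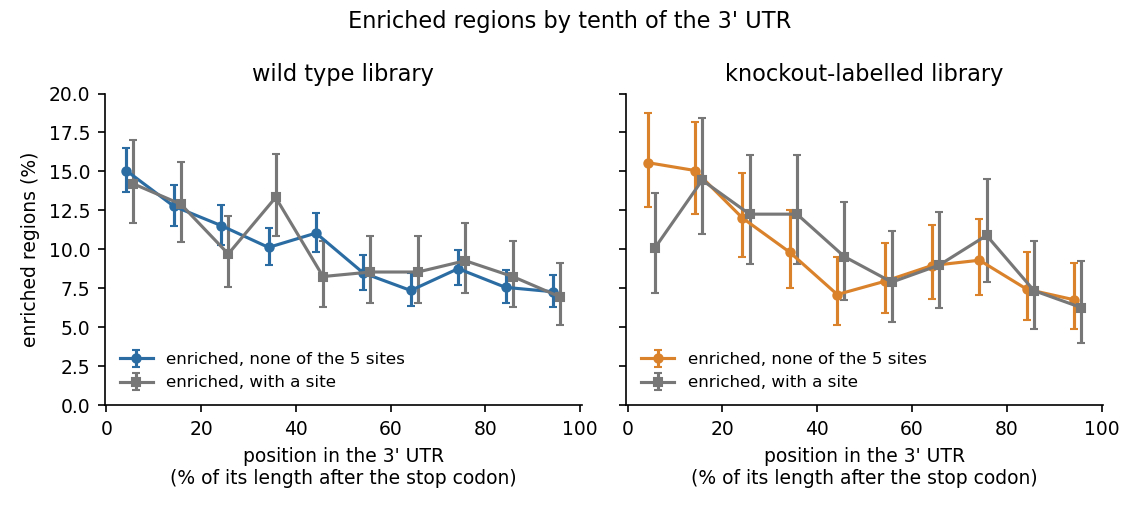
Percent of enriched clusters (y axis) in successive 10% steps of the 3' UTR from the stop codon to its annotated end (x axis), for seedless clusters (circles) and clusters with a site (squares) in each library, with exact 95% intervals. Seedless clusters decline from 15.1% to 7.29% in wild type and from 15.6% to 6.77% in the knockout-labelled library.

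The median position differed with UTR length, but not in the same way in every class. In wild-type 3' UTRs of 500 to under 2000 bases the enriched seedless clusters had a median position of 0.448 (794 clusters), in those of 2000 to under 4000 bases 0.401 (958), and in those of 4000 bases or more 0.326 (663). In the knockout-labelled library the 3 medians were 0.402 (179 clusters), 0.426 (236) and 0.294 (157), so that of these classes the longest UTRs stood lowest; the 19 clusters in UTRs under 500 bases had 0.2. Wild-type clusters that were not enriched had 0.435, 0.374 and 0.411, and knockout-labelled enriched clusters with a site rose from 0.318 to 0.474 between the shortest and the longest of these classes. Within 100 bases of the stop codon lay 7.29% of the wild-type and 6.60% of the knockout-labelled enriched clusters, and within 100 bases of the annotated end 3.60% and 2.03%. Positions were taken on the longest annotated UTR. On the shortest UTR that holds the midpoint the medians were 0.457 and 0.432.

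A site of the 5 families elsewhere in the same UTR was common. Of the enriched seedless clusters 1865 (74.7%) in wild type and 443 of 591 in the other library lay in a 3' UTR that holds such a site outside the cluster, at a median distance of 442 and 453 bases. Only 8.73% and 8.46% had one within 100 bases. For seedless clusters that were not enriched the values were close, 72.8% and 73.2% with a site and 8.32% and 6.96% within 100 bases. A called cluster with a site in the same gene was present for 28.5% of enriched and 22.2% of not enriched clusters in wild type, and for 38.1% and 27.4% in the knockout-labelled library.

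Enriched seedless clusters were found in 1528 genes in wild type and in 444 in the knockout-labelled library, of which 346 were shared (22.6% and 77.9%). The difference in list length limits these shares. The overlap over genes of all enriched clusters is not given here, so they say nothing particular about seedless clusters. Most genes had a single enriched seedless cluster: 929 and 362. Igf2, the imprinted gene of a growth factor, had 9 of 10 seedless clusters enriched in wild type and 10 of 12 in the knockout-labelled library, and no cluster with a site. These lay between 1880 and 2507 bases after the stop codon of a 3050-base UTR in wild type, several of them end to end, with 27 to 125 IP reads (median 52), and in the knockout-labelled library with 46 to 187 (median 120). Igf2 clusters had a mean GC content of 61.2% and 62.3% and no site of the 46 families. The let-7 site printed above was the only 7mer-A1 site in their windows.

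Other genes also held many enriched seedless clusters. Tnrc6b, whose protein binds Argonaute in silencing complexes, had 9 of 14 enriched in wild type with 5 to 17 reads, and 2 enriched clusters with a site. Zbtb7a, a transcription factor gene, had 9 of 10 (5 to 30 reads) and 4 with a site. Rab3c, which encodes a vesicle GTPase, had 8 of 11 (5 to 57 reads) and none with a site, and Elavl3, a neuronal RNA-binding protein gene, 8 of 11 (5 to 15 reads). In the knockout-labelled library Ankrd52, which encodes a phosphatase subunit, had 8 of 9 (9 to 26 reads), Pgm2l1, a sugar-phosphate enzyme gene, 7 of 11 (9 to 30), and Dynll2, a dynein light chain gene, 5 of 8 (16 to 59).

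The strongest seedless clusters were mostly seen in both libraries. Ids encodes a lysosomal sulfatase, and its cluster had 151 reads against 5 in wild type (log2 7.58), over which the knockout-labelled library had a cluster of 232 against 4 (6.80). Its window holds a miR-7a site. Nktr, a gene of a cyclophilin-related protein, had 93 against 1 and 92 against 2, and Bcl11b, a transcription factor gene of subcortical projection neurons, 56 against 1 and 68 against 1. Alg2, a gene of N-glycan assembly, had 68 against 2 and 112 against 5 and holds a miR-124 6mer. All of these were enriched in both libraries.

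Others fell short in the knockout-labelled library, wholly or in part. Gabbr1, the gene of a GABA-B receptor subunit, had 150 reads against 29 in wild type (log2 5.03) and 248 against 60 in the knockout-labelled library (2.99, just under the limit). Vps33b, an endosomal trafficking gene, was split: its wild-type cluster (67 against 14 reads) lay over 5 knockout-labelled ones, of which 2 were enriched (115 against 21 and 66 against 2) and that with the largest overlap was not (117 against 32, log2 2.81). Rbfox2, a splicing regulator gene, had 41 against 14 (4.21) and 23 against 18 (1.29), and Dynll2 52 against 14 (4.56) and 35 against 15 (2.16). Snhg11, a small nucleolar RNA host gene annotated here with a coding transcript, had a log2 of 5.10 in wild type against −0.52 for the knockout-labelled library, with −log10 p values of 400 and 0 from which no reads could be recovered. Its 2 values were the farthest apart of the 20 clusters with the highest wild-type scores outside small RNA genes.

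**Figure D5:**
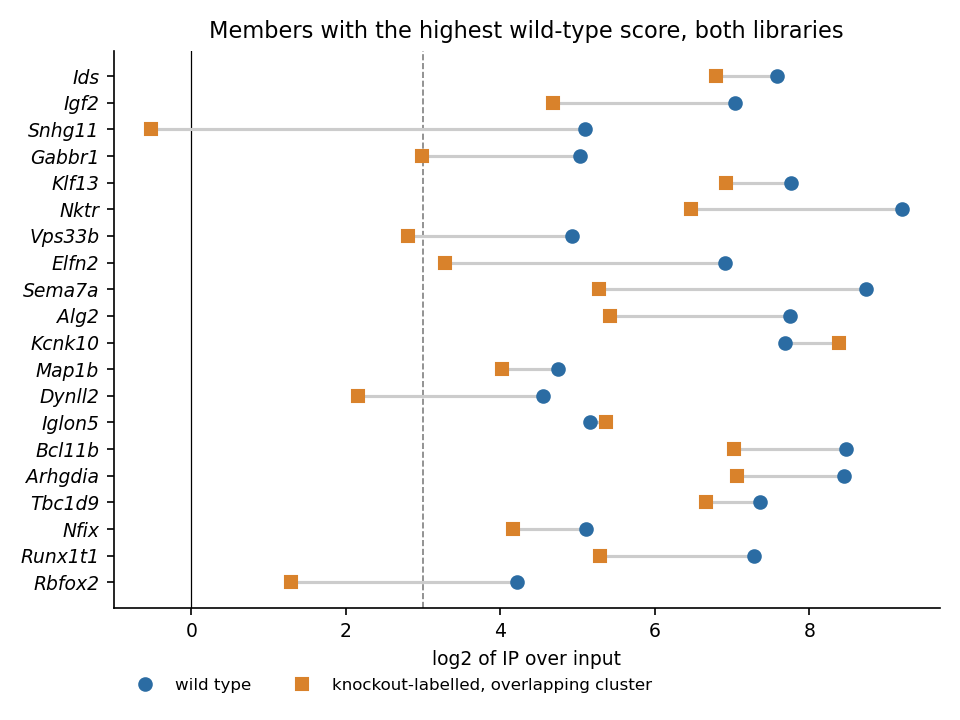
Deposited log2 of IP over input (x axis) of the 20 wild-type seedless clusters with the highest −log10 p outside small RNA genes, 1 per gene (y axis), as circles, and of the knockout-labelled cluster with the largest overlap as squares; the dashed line is the limit of 3. Of these genes Kcnk10 and Iglon5 have the higher value in the knockout-labelled library, and the Kcnk10 cluster of that library itself holds a miR-124 site.

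Some of the highest scores belonged to miRNA genes that lie in an annotated 3' UTR. The cluster in Vezt at Mir331 had 277 reads against 1 in wild type and 204 against 1 in the knockout-labelled library, that in Dvl2 at Mir324 had 235 and 163, that in Vmp1 at Mir21a 144 and 139, and that in 2010111I01Rik at Mir27b 106 and 37, each against 1 input read. Such reads can come from the small RNA itself. These clusters were 13 of 2498 and 9 of 591 enriched members, and without small RNA genes the enriched shares were 34.1% and 6.43%.

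Enriched seedless clusters recurred between the libraries less often than enriched clusters with a site. Of the 2498 in wild type 390 (15.6%, 14.2 to 17.1) overlapped an enriched 3' UTR cluster of the knockout-labelled library, against 276 of 690 with a site (36.3 to 43.8%). Of the 591 in the knockout-labelled library 373 (63.1%, 59.1 to 67.0) overlapped an enriched wild-type one, against 273 of 367 with a site (74.4%, 69.6 to 78.8). The lists differ in length, and with equal numbers of enriched clusters taken from each library the seedless shares were 41.3% and 47.4%. No such share was taken for clusters with a site, and no overlap share was taken over all enriched clusters. With at least 20 IP reads the wild-type shares were 74.0% of 127 (65.5 to 81.4) and 90.1% of 81 (81.5 to 95.6). In the knockout-labelled library they were 89.3% of 159 (83.4 to 93.6) and 96.1% of 103 (90.4 to 98.9). The share was higher at 20 or more reads in both classes, and the seedless share was the lower one in each pair. At that depth the intervals overlapped in the knockout-labelled library. Overlap with any cluster of the other library, enriched or not, was 96.9% and 96.3% in wild type at that depth. Where clusters of both libraries overlapped, whether enriched or not, 2099 seedless pairs had a median log2 over input 1.72 higher in wild type, and 715 pairs with a site 1.57 higher. Because of input depth, equal IP and input read numbers score a log2 of 2.66 in the wild-type table but 0.94 in the other. A cluster whose input is counted as 1 read is therefore scored differently in the 2 libraries. How far the median shift comes from this was not tested. Among pairs with at least 5 input reads the median was 1.31 higher in wild type for 177 seedless pairs, of which 171 were higher in wild type. For 14 such pairs with a site it was 0.93 higher, and 12 of them were higher in wild type.

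The wild-type and knockout-labelled IPs are set against each other in the series-wide table, which shares the wild-type IP with the values above. According to the authors' deposited table, 260 of 7304 seedless clusters (3.56%, 3.15 to 4.01) were higher in wild type at a −log10 p of at least 3 and a log2 of at least 1, beside 3.39% of all its regions. The count was 31 at limits of 5 and 2, and 88 among clusters with at least 20 reads. The share of 3.56% is near the background and says nothing particular about seedless clusters. None was lower, computed from recovered reads at a log2 of −1 or less, where 0.177% of all regions were. The deposited table covers clusters called in wild type, so that regions seen only in the knockout-labelled library are not in it. Its median log2 was 2.19 for seedless clusters, 1.41 for those with a site and 2.77 for all regions. Most of these rest on few reads: among the 643 seedless clusters with at least 20 reads over both IPs the median log2 was 0.76 (quartiles 0.19 and 1.32), with 518 above and 125 below 0. In whole brain, fewer cells of a type and less RNA per cell cannot be told apart.

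The 260 higher clusters lay in 210 genes, had a median of 12 wild-type and 3 knockout-labelled IP reads, and 253 of them were also enriched over the wild-type input. Among clusters with at least 20 reads, the authors' deposited table put Zc3h11a, a zinc finger gene, highest at 3.65 on the log2 scale (22 wild-type and 4 knockout-labelled IP reads). Next in the authors' deposited table were Rbm8a, of the exon junction complex, and Zbtb7a, both with a log2 of 3.33 on 22 and 5 reads. The Rbm8a cluster was not enriched over input in either library (log2 2.12 and −2.23). Tnrc6a, a paralogue of Tnrc6b, stood at 2.70 (20 and 7 reads), again in the authors' deposited table. Over input, Zc3h11a had a log2 of 6.12 in wild type and 2.52 for the knockout-labelled library, and Tnrc6a 6.99 and 2.26. At the other end, the lowest value in the authors' deposited table was −1.86 on the log2 scale, for Dcx, the gene of a microtubule protein of migrating neurons (4 and 33 reads). The authors' deposited table gave −1.62 for Cplx2, a gene of synaptic vesicle release (4 and 28 reads), while Nrxn2, of a presynaptic adhesion protein, had −1.31 (3 and 17), and a Map1b cluster far down its UTR −1.16 (11 and 56). For these the deposited table lists a −log10 p of 0. The Dcx cluster was enriched over input in the knockout-labelled library (36 reads against 5 in its own cluster, log2 3.79) but not in wild type (4 against 3, log2 3.08).

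The searched gene groups held enriched seedless clusters in many of their members. Over all genes with a seedless cluster, 1528 of 3250 (47.0%) had an enriched one in wild type and 444 of 4037 (11.0%) in the knockout-labelled library. Among synapse genes these were 21 of 30 and 9 of 34, with Grin2b, an NMDA receptor subunit gene, at 30 reads against 8 in wild type and Shank1 as above. Axon guidance genes had 16 of 21 and 8 of 29, among them Sema7a and Epha7. Of neural transcription factor genes 20 of 30 and 9 of 30 had one, led by Klf13, Bcl11b and Nfix. RNA regulation genes had 18 of 26 and 8 of 27, cytoskeleton genes 20 of 26 and 10 of 28, and chromatin genes 10 of 12 and 5 of 16. In the cytoskeleton group Map1b, a microtubule-associated protein gene, had 51 reads against 12 in wild type and 34 against 4 in the knockout-labelled library over its miR-124 7mer-A1 and miR-181a sites. The chromatin group was led by Kdm6b, a histone demethylase gene, with 42 against 3 and 33 against 2, and by Smarca2. In RNA regulation, Lin28b, whose protein blocks let-7 maturation, had 14 against 1 and 21 against 1. These lists were written for brain genes. Their genes also held more seedless clusters each than all genes did. In wild type 7304 clusters lay in 3250 genes, but 89 in the 30 synapse genes and 131 in the 26 RNA regulation genes. A gene with more clusters has more occasions to hold an enriched one. How far the counts follow cluster number or RNA abundance was not tested.

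Of the 14 neuron markers 8 of 11 with a seedless cluster had an enriched one in wild type and 6 of 13 in the knockout-labelled library. Neural progenitor markers had 0 of 2 in each, astrocyte markers 1 of 3 and 0 of 3, and endothelial and mural markers 0 of 3 in each. Oligodendrocyte lineage markers had no 3' UTR cluster in wild type and 0 of 4 enriched in the knockout-labelled library, and microglia markers had no 3' UTR cluster in either. Erythroid markers had 2 of 2 in wild type, the beta-globin genes Hbb-bs and Hbb-bt, and no cluster in the knockout-labelled library. Of the liver list only Ttr, which the choroid plexus also expresses, had a cluster. The labelled tissue thus carried its neuronal markers, and the part of blood in any result was not tested.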

How the data were processed

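AGO2 eCLIP of 1 wild-type and 1 knockout-labelled whole brain library was analysed from the deposited tables, 1 per IP and 1 for the series. The labels' protocols state adapter removal (cutadapt 1.15), removal of repeat reads and mapping to mm10 (STAR 2.6.0c), collapsing of duplicates (UMI tools 5.2) and cluster calls per IP (CLIPper 1.4). Each cluster carries the authors' −log10 p (up to 400) and, as deposited, their log2 of IP over input read density. The deposited series table holds a −log10 p and a log2 that compare both IPs, by a procedure not given in the sources used here. It was read with wild type as numerator, since 46799 of its 46862 regions are wild-type ones and its recovered numerators are the wild-type IP reads.

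Regions were annotated at their midpoint with GENCODE mm10 transcripts, of which 59224 of 59264 start codons read ATG. Read numbers were recovered as whole-number ratios that meet both scores within 1% of the listed p; 42474 of 42531 wild-type numbers found from 2 tables were equal, and the rest were left without reads. The recovery was checked on simulated data. Each region was placed on the longest 3' UTR that holds its midpoint. The miRNA sequences are from RefSeq (GRCm38.p6). No entry of the table was used for miR-124-3p, miR-23b-3p, miR-185-5p, miR-320-3p and miR-485-5p. Python 3.11.15, numpy 2.4.6, pandas 2.3.3, scipy 1.17.1 and matplotlib 3.10.9 were used.

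Named genes were, per library and with 1 region per gene, the 10 enriched members with the highest −log10 p (and the 10 next outside small RNA genes, added later), the 5 genes with the most enriched members, the 2 strongest members for each leading family, up to 3 per gene list, and in the series table the 10 highest and 10 lowest log2 values at 20 or more reads. A smaller number of these was printed. Examples of 7mer-A1, bulged and G-quadruplex sites, of miR-153, and the longest pairing run were added after values were seen. The members, gene lists and motifs were chosen with earlier results of these data known. Alternatives covered the limits, the flank, weaker sites, read minimums, overlap, UTR choice, window and site length.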

Additional observations from a re-analysis of the deposited data

How the results depend on the processing

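The design has 1 library per genotype, and depth limits every share: most members had 3 or 4 IP reads. No paired analysis was possible because each genotype has 1 IP and no replicate could be left out. Of 68 alternative values 32 moved by no more than the main value's counting interval (1.5 times for counts), among them all member counts, which ranged from 6074 to 7693 in wild type and from 7481 to 9515 in the knockout-labelled library. Values for wild type come first below. With limits of 5 and 4 the enriched shares were 14.5% and 2.36%, the overlap with the other library 17.1% and 76.6%, and the wild-type share with another family 53.9% (1.60 times the tiled windows). With limits of 5 and 2 the series table had 31 higher members. With 7mer-A1 and 6mer matches also removed the enriched shares were 32.8% and 5.69%. With at least 10 IP reads they were 86.4% and 56.3%, and with at least 5 input reads 24.4% and 4.89%. By log2 alone, an alternative chosen after seeing the data, they were 92.2% and 20.9%. An overlap of 50% of the region gave 13.9% and 55.0%, and equal numbers of peaks 41.3% and 47.4%. On the shortest UTR the median positions were 0.457 and 0.432. A 60-base window gave 35.8% and 37.3% with another family (1.70 and 1.81 times the tiled share), and 8mer matches alone 19.8% and 25.1% (1.94 and 2.61 times). Chosen after seeing the data, windows of 40 to 50% GC gave 44.8% in wild type (1.34 times), and at least 10 IP reads 50.9% (1.502 times). In those GC windows the ratio to the tiled share, below 1 in all windows, turned to 1.67 for miR-410 and 1.10 for ATTTA in wild type, and to 1.03 for AATAAA and 1.21 for ATTTA in the knockout-labelled library. At 20 or more reads the series table had 88 higher members and a median log2 of 0.76. Centred on the median of all regions, the members' median log2 was −0.58, the reverse of its sign before centring. The cause of these changes was not tested, except that stricter limits and minimums select regions with more reads by construction.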
